A study of Mus musculus with 12 samples.

Results

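The SLC25 carriers are the family of small, nuclear-encoded transporters that move metabolites, nucleotides and cofactors through membranes inside the cell, most of them across the inner membrane of mitochondria. Here they were the genes of the count table whose symbol is Slc25a followed by a number. This gave 38 genes of 13780, and all 38 were among the 13767 genes tested. The symbol rule leaves out relatives filed under other names, such as the uncoupling proteins and the Mtch genes, and it takes in Slc25a17, which sits in peroxisomes, and Slc25a46, which sits in the outer mitochondrial membrane.

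As background, the inner membrane is tight to charged metabolites, so each exchange between cytosol and matrix needs a carrier. Adenine nucleotide and phosphate carriers supply ATP synthase, the aspartate-glutamate, oxoglutarate and citrate carriers link cytosolic redox state and lipid synthesis to the tricarboxylic acid cycle, and others bring in amino acids, folate, iron, glutathione and nucleotides. A T cell that leaves rest to divide enlarges its mitochondria and its demand for metabolites made there.

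RNA was sequenced from mouse splenic CD8+ T cells in 3 groups of 4 samples. The cells came from C57BL/6J mice 8 to 12 weeks old and were obtained by positive magnetic selection. Naïve samples were not activated and not treated. The other 8 were activated for 72 h with beads carrying antibodies to CD3 and CD28, with IL-2 at 10 U/ml, either in plain media or with 40 mM sodium lactate. Naïve samples were taken at 0 h, so activation, time in culture and IL-2 cannot be told apart in comparisons with them. Below, "on activation" stands for these together. Because the control was plain media, the lactate cultures also held more sodium, and the effects of the lactate anion and of sodium or osmolality cannot be told apart here. Below, "lactate" said to raise or lower a gene stands for all of these together. No gene was deleted in any group. Total counts ran from 14726904 to 21478137 per sample. Library numbers in the labels fell into a low series of 8 samples and a high series of 4 (naïve 4, media 4, lactate 3 and lactate 4). Differences within the high series therefore rest on a single media sample and, against naïve, on a single naïve sample.

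Cd8a, which defines the labelled cell type, was detected in all 12 samples. The 5 CD8 T cell markers summed to between 1776 and 3566 CPM (counts scaled to library size, by TMM) in naïve samples. The sums were 2608 to 3230 CPM in media and 2032 to 2517 with lactate, without overlap. Cd3d, Cd3e and Trac were each lower in every lactate sample than in every media sample, while Cd8a and Cd8b1 overlapped. The naïve samples also held RNA of other spleen cells. B cell markers summed to between 467 and 1130 CPM in naïve samples, 9.03 and 16.1 in media and 5.69 and 7.65 with lactate. The 5 myeloid markers summed to between 420.3 and 1395 CPM in naïve samples and to at most 0.982 in activated ones. Red-cell markers (6 of the 7 listed were in the table) summed to 1113, 4300, 439 and 98.2 CPM in naïve samples 1 to 4, against at most 1.90 in any activated sample, where Slc4a1 was at 0 in all 8. Naïve 4 stood apart, with Cd8a at 388 CPM where the other naïve samples had 849 to 1208. Cd8b1, Cd3d and Cd3e were also lowest there among naïve samples. Trac was not, at 411.6 CPM where the other naïve samples had 362.6 to 454.1. In bulk RNA, fewer cells of a type and less RNA per cell cannot be told apart, and the part of these other cells in the naïve comparisons was not tested except where values are given below.

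With lactate, 6 carriers were higher and 3 were lower than in plain media. Higher than in media were Slc25a33, Slc25a10, Slc25a15, Slc25a13, Slc25a32 and Slc25a5, and lower were Slc25a28, Slc25a40 and Slc25a45 (edgeR quasi-likelihood test, Benjamini-Hochberg adjusted p over all genes of at most 0.01). Here and below, a value with ± is a log2 fold change with its standard error from that fit, and "passing" means an adjusted p of at most 0.01. Where a call was lost without a sample, the number in parentheses after that sample is the adjusted p without it. These 9 of 38 members make 23.7%, beside 25.1% of all genes tested, so the family was not called more often than the rest of the transcriptome. The split was 15.8% higher and 7.89% lower, beside 13.9% and 11.1% of all genes. The samples of the 2 groups did not overlap for 20 members (52.6%, beside 44.7% of all genes), and of these 17 were higher with lactate. Over the 38 members the median log2 fold change was 0.23, beside -0.0016 over all genes, and 26 members had a positive value. The shares of all genes that were apart in that direction, or had a positive value, are not given here. The counts of 17 and 26 are therefore not read as a lean of the family. The count of 9 moved with single libraries: it was 5 without media 2, 5 without lactate 1 and 16 without naïve 4, the sample that stood apart. The 7 gained there were Slc25a3, Slc25a16, Slc25a20, Slc25a26, Slc25a36, Slc25a38 and Slc25a46, with an adjusted p of 4.4e-04 to 0.0081. The share of all genes called in these fits without 1 sample is not given here. These counts are therefore not a result about the family.

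Activation in plain media changed about as many carriers in each direction. Against naïve cells, 9 members rose and 11 fell, 20 of 38 in all (52.6%, beside 57.5% of all genes). The shares of all genes that rose and fell were 28.5% and 29%. Media and naïve samples did not overlap for 21 members (55.3%, beside 61.2% of all genes). The rises were led by the citrate carrier Slc25a1 and by Slc25a13, and the falls by Slc25a45 and Slc25a29. With lactate, 14 members were higher and 9 lower than in naïve cells (60.5%, beside 65% of all genes). For that comparison 33% of all genes were higher and 32% lower. Both comparisons share the naïve samples. Without naïve 2 and naïve 4, the members called numbered 20 in media and 24 with lactate, and the share of all genes in that fit is not given here.

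**Figure D1:**
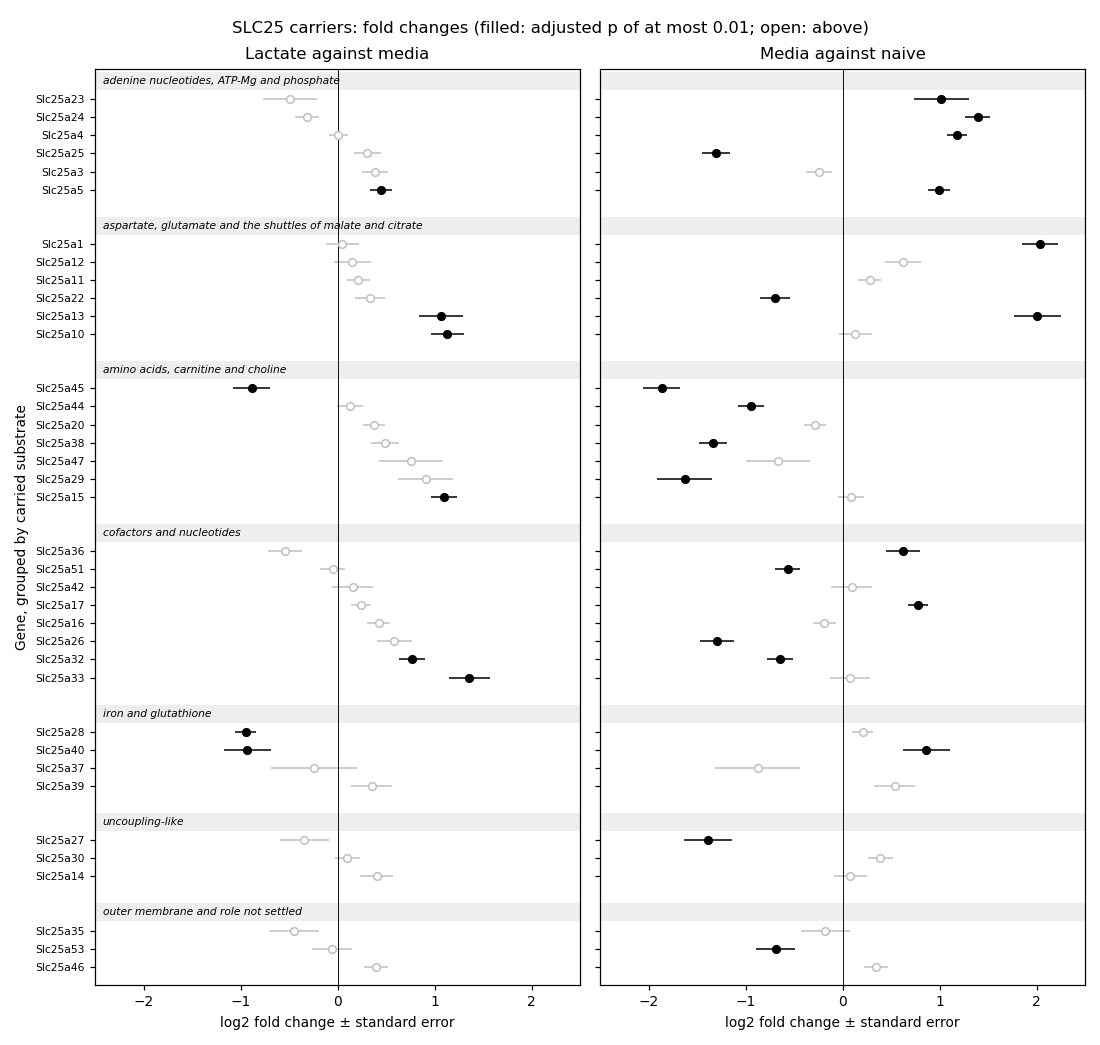
Log2 fold change with its standard error for the SLC25 genes described here, grouped by what they carry, in lactate against media (left) and media against naïve (right), where filled points have an adjusted p of at most 0.01. The 6 filled points right of 0 in the left panel span 0.45 to 1.36, and the 3 to the left span -0.95 to -0.89.

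Compared per length, 3 carriers stood above the rest. TPM (a level per gene length, scaled to a fixed sum per sample) for Slc25a5 averaged 491 ± 33.3 in naïve cells, 994 ± 107 in media and 1235 ± 72.1 with lactate (SD, n = 4). Slc25a3 averaged 341 ± 94.1 in naïve cells, 291 ± 22.7 in media and 347 ± 22.3 with lactate, and Slc25a4 averaged 173 ± 14.4 in naïve cells, 397 ± 27.5 in media and 364 ± 30.2 with lactate. The mean of Slc25a3 was above that of Slc25a4 in naïve cells and below it in media, and with lactate they lay within 1 SD of each other. The next was Slc25a11 in naïve cells, at 105 TPM, and Slc25a1 in media and with lactate, at 173 and 164 TPM, which in naïve cells was at 41.9. Slc25a47 had the lowest mean in all 3 groups, between 1.04 and 1.63 TPM. The summed level of the family was 2047 ± 96.0 TPM in naïve cells, 2878 ± 176 in media and 3133 ± 71.8 with lactate (SD, n = 4). No sample of one group reached into the range of another, with 1964 to 2180 TPM in naïve cells, 2624 to 3024 in media and 3082 to 3239 with lactate. Slc25a5 alone took 21.6% to 25.4% of that sum in naïve cells, 32.3% to 37.9% in media and 36.2% to 41.3% with lactate.

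**Figure D2:**
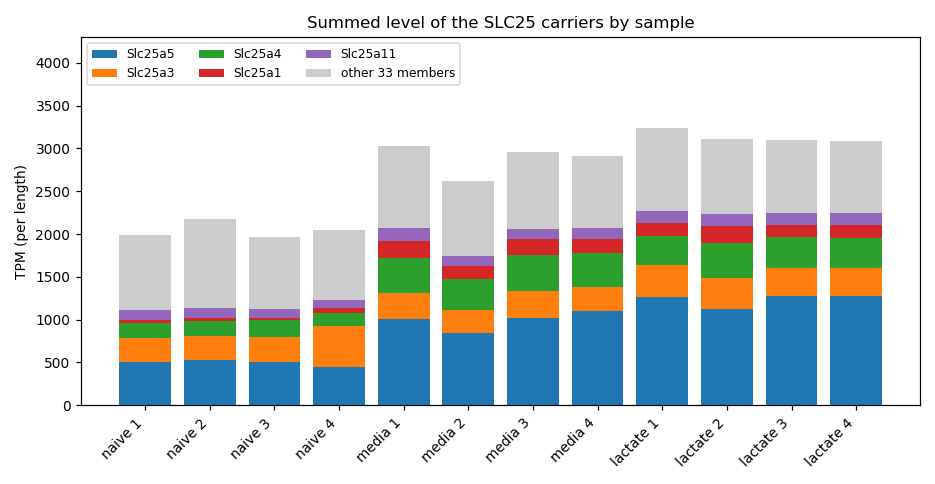
Summed TPM of the SLC25 genes in each of the 12 samples, stacked by member, with the 5 members of highest mean over all 12 samples in colour and the other 33 in grey. The bars reach 1964 to 2180 TPM in naïve cells and 3082 to 3239 with lactate, and most of the difference is in the Slc25a5 segment at the base.

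Among the carriers of adenine nucleotides, ATP-Mg and phosphate, 4 of 6 rose and 1 fell on activation (66.7% and 16.7%, beside 28.5% and 29% of all genes), and 1 was raised by lactate (16.7%, beside 13.9%). Slc25a5 encodes the ADP/ATP exchanger of dividing cells (chrX:36795651-36798807, plus strand, GRCm38). It was at 239.8, 264, 242 and 205 CPM in naïve cells, 467, 398, 477 and 551 in media and 627, 574, 696 and 686 with lactate. The lowest lactate sample lay just above the highest media sample, and all media samples were above all naïve ones. The log2 fold change was 0.99 ± 0.12 (SE, adjusted p = 8.4e-06) in media against naïve and 0.45 ± 0.11 (SE, adjusted p = 0.0084) in lactate against media. Within the low and the high library series the lactate differences were 0.43 and 0.33. This call was lost in 14 of 22 alternative analyses, the most of the 6. With donor as a block the value was 0.34 (adjusted p = 0.014), and the adjusted p was above 0.01 without naïve 1 (0.0129), naïve 2 (0.0108), naïve 3 (0.0138), media 1 (0.0221), media 2 (0.0273), media 3 (0.0211), lactate 1 (0.0162), lactate 3 (0.032) and lactate 4 (0.0308).

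Slc25a4, the ADP/ATP exchanger best known from muscle and heart, was at 120.0, 126, 130.3 and 101 CPM in naïve cells, 271, 242, 284 and 282 in media and 239.8, 296, 274 and 277 with lactate. It rose on activation by 1.18 ± 0.10 (SE, adjusted p = 6.8e-07), with no overlap, while lactate and media samples overlapped, with a value of 0.0093 ± 0.10 (SE, adjusted p = 0.97) that turned to -0.025 under DESeq2 size factors. Slc25a3, which brings phosphate into the matrix, was at 471, 488, 496 and 749 CPM in naïve cells, 479.6, 422, 494 and 467 in media and 626, 613, 601 and 601 with lactate. All lactate samples were above all media samples, but the difference of 0.39 ± 0.13 (SE, adjusted p = 0.036) did not pass the test. It passed without naïve 4 (0.000702), the sample that was highest of all 12 for this gene.

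The calcium-regulated ATP-Mg/phosphate carriers differed from each other. Slc25a24 was at 14.5, 18.3, 12.7 and 12.9 CPM in naïve cells, 39.1, 41.4, 38.2 and 34.8 in media and 34.4, 30.6, 29.5 and 29.2 with lactate. It rose on activation by 1.39 ± 0.13 (SE, adjusted p = 1.2e-06), with no overlap, and the lactate samples lay below the media samples without passing the test (-0.31 ± 0.13, adjusted p = 0.066). Slc25a23 was at 38.0, 30.5, 42.1 and 15.2 CPM in naïve cells, 58.1, 68.4, 49.0 and 79.6 in media and 35.5, 35.4, 51.0 and 60.0 with lactate. Its media samples were all above the naïve ones, with 1.02 ± 0.28 (SE, adjusted p = 0.0064). The adjusted p was above 0.01 without naïve 2 (0.0227), media 1 (0.0111), media 2 (0.0164), media 4 (0.0282) and lactate 3 (0.012). Its difference between lactate and media, -0.49 ± 0.28 (SE, adjusted p = 0.19), was -0.52 with an adjusted p of 0.0043 once donor was a block. Slc25a25 went the other way on activation, from 40.9, 39.8, 39.6 and 39.4 CPM in naïve cells to 15.1, 13.6, 15.6 and 20.5 in media and 19.6, 16.4, 23.6 and 20.6 with lactate. It fell by 1.30 ± 0.14 (SE, adjusted p = 4.8e-06) on the log2 scale, with no overlap.

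The carriers of aspartate, glutamate, malate and citrate held the 2 largest rises of the family on activation. They also held 2 of its 4 called rises of at least 2-fold with lactate. No member was called and at least 2-fold lower with lactate. These 4 make 10.5% of members, beside 9.06% of all genes called and at least 2-fold changed in either direction. Slc25a13 encodes citrin, the aspartate-glutamate carrier best known from liver (chr6:6041218-6217173, minus strand). It was at 4.06, 5.41, 6.36 and 2.80 CPM in naïve cells, 23.3, 13.7, 21.6 and 16.2 in media and 45.3, 37.5, 37.8 and 36.1 with lactate. The 3 groups were fully apart, each above the last. The log2 fold change was 2.01 ± 0.24 (SE, adjusted p = 1.1e-05) for media against naïve, 1.07 ± 0.23 (SE, adjusted p = 0.0029) for lactate against media and 3.07 ± 0.25 (SE, adjusted p = 2.6e-07) for lactate against naïve. Its lactate differences were 1.11 and 1.18 within the low and high series, and the adjusted p was above 0.01 without media 2 (0.0112), media 4 (0.0106) and lactate 1 (0.0107).

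Slc25a12, which encodes aralar, the other aspartate-glutamate carrier, was at 70.5, 60.4, 76.7 and 34.0 CPM in naïve cells, 92.3, 94.5, 93.0 and 91.9 in media and 103, 93.6, 109 and 108 with lactate. All media samples were above all naïve ones, at 0.62 ± 0.19 (SE, adjusted p = 0.0105), which narrowly missed the threshold. This difference passed without naïve 3 (adjusted p = 0.00704) and without naïve 4 (adjusted p = 0.00118). Lactate against naïve gave 0.78 ± 0.19 (SE, adjusted p = 0.0024), a call lost without naïve 2 (0.0116), lactate 3 (0.0114) and lactate 4 (0.0108). Naïve 4 was far below the rest here, and lactate and media samples overlapped (0.15 ± 0.19, adjusted p = 0.55). Slc25a10, the dicarboxylate carrier that exchanges malate or succinate for phosphate (chr11:120491840-120499187, plus strand), was at 14.4, 13.0, 10.3 and 13.1 CPM in naïve cells, 17.6, 10.2, 13.0 and 14.7 in media and 33.7, 26.0, 29.6 and 32.7 with lactate. Naïve and media samples overlapped, and every lactate sample was above every other sample. Lactate raised it by 1.13 ± 0.17 (SE, adjusted p = 3.4e-04) over media, with 1.15 and 1.07 within the series, while media against naïve gave 0.13 ± 0.17 (SE, adjusted p = 0.51). Of its exon bases, 6.60% overlap Gm11788 on the opposite strand.

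Slc25a1, the citrate carrier that exports citrate for lipid synthesis, was at 22.7, 24.9, 20.2 and 37.8 CPM in naïve cells, 123, 91.0, 111 and 107 in media and 101, 131, 107 and 108 with lactate. The media samples were all above the naïve ones and overlapped the lactate samples. Activation raised it by 2.03 ± 0.18 (SE, adjusted p = 8.6e-07), and lactate against media gave 0.051 ± 0.17 (SE, adjusted p = 0.85). Slc25a11, the oxoglutarate-malate carrier of the shuttle, ranged from 52.2 to 76.7 CPM in naïve cells, 69.3 to 89.3 in media and 89.5 to 94.5 with lactate and passed the test only in lactate against naïve, among the 3 comparisons (0.49 ± 0.12, adjusted p = 0.0024, lost without naïve 3 (0.0226), lactate 3 (0.015) and lactate 4 (0.0134)). Slc25a22, a glutamate carrier, ranged from 39.2 to 69.3 CPM in naïve cells, 31.9 to 35.7 in media and 38.8 to 51.2 with lactate. It fell in media by 0.70 ± 0.15 (SE, adjusted p = 0.0014) on the log2 scale, and all lactate samples were above all media samples without passing the test (0.33 ± 0.15, adjusted p = 0.104).

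The list used here placed 7 members under amino acids, carnitine and choline. Of these, 4 fell and none rose on activation in media (0 at an unadjusted p under 0.05, and 0 by DESeq2 and limma voom), where 29% of all genes fell and 28.5% rose. Lactate raised 1 and lowered 1 of the 7 (14.3% each, beside 13.9% and 11.1% of all genes). Slc25a15 encodes the ornithine carrier of the urea cycle and of polyamine supply (chr8:22375551-22398597, minus strand). It was at 12.2, 12.3, 14.8 and 14.5 CPM in naïve cells, 17.2, 12.1, 15.0 and 12.7 in media and 33.8, 28.9, 29.7 and 29.9 with lactate. Naïve and media samples overlapped, and the 4 lactate samples were all higher than the other 8. Lactate raised it by 1.10 ± 0.13 (SE, adjusted p = 1.2e-04) over media, with 1.09 and 1.23 within the series, while media against naïve gave 0.086 ± 0.13 (SE, adjusted p = 0.59).

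Slc25a45 (chr19:5877808-5885878, plus strand) fell at each step. It was at 58.0, 60.6, 52.8 and 38.9 CPM in naïve cells, 12.2, 18.1, 10.9 and 16.6 in media and 6.92, 8.49, 6.93 and 8.82 with lactate. No sample of one group reached another group. The fall was 1.87 ± 0.19 (SE, adjusted p = 2.7e-06) on the log2 scale in media against naïve, and lactate against media gave -0.89 ± 0.19 (SE, adjusted p = 0.0031), with -0.80 and -1.07 within the series. The adjusted p of the lactate difference was above 0.01 without media 2 (0.012), lactate 1 (0.0119) and lactate 3 (0.0112).

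Slc25a38, the glycine carrier that feeds haem synthesis, was at 37.1, 46.1, 35.4 and 31.2 CPM in naïve cells, 14.1, 12.3, 15.0 and 17.8 in media and 20.1, 19.0, 21.9 and 22.4 with lactate. Media samples were all below naïve ones (-1.34 ± 0.15, adjusted p = 4.6e-06), and lactate samples were all above media ones without passing the test (0.49 ± 0.14, adjusted p = 0.017). Slc25a29, a carrier of basic amino acids, was at 5.52, 4.09, 6.57 and 3.19 CPM in naïve cells, 1.94, 1.42, 1.67 and 1.19 in media and 2.77, 2.20, 4.03 and 2.79 with lactate. Its media samples were below all 8 others, at -1.63 ± 0.28 (SE, adjusted p = 2.3e-04) for media against naïve and 0.91 ± 0.28 (SE, adjusted p = 0.023) for lactate against media. Slc25a44, a carrier of branched-chain amino acids, ranged from 37.6 to 42.9 CPM in naïve cells, 17.9 to 22.9 in media and 18.8 to 27.3 with lactate and fell in media (-0.94 ± 0.13, adjusted p = 4.8e-05). Slc25a20, which carries carnitine and acylcarnitines for fatty acid oxidation, ranged from 23.1 to 31.4 CPM in naïve cells, 20.7 to 23.4 in media and 27.5 to 29.6 with lactate. Its lactate samples were all above the media ones at 0.38 ± 0.11 (SE, adjusted p = 0.016), which did not pass. Slc25a47 was the lowest member, from 1.26 to 1.68 CPM in naïve cells, 0.334 to 1.20 in media and 1.20 to 1.79 with lactate, and passed no test.

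**Figure D3:**
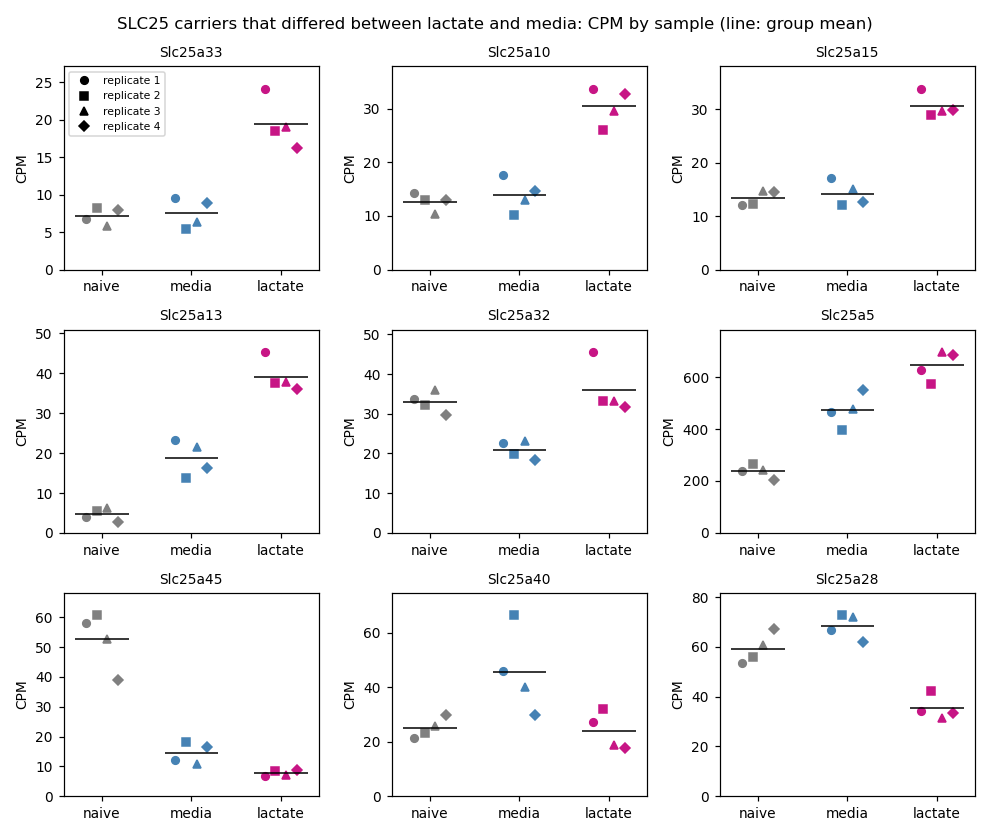
CPM in each of the 12 samples for the 9 SLC25 genes called in lactate against media, with marker shape for the replicate and a line at the group mean, and each axis starts at 0. In Slc25a33, Slc25a10 and Slc25a15 the naïve and media samples lie together and the lactate samples above them, while in Slc25a32 the media samples are the low group and in Slc25a28 the lactate samples are.

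Carriers of cofactors and nucleotides included the largest lactate difference of the family, in Slc25a33, a pyrimidine nucleotide carrier (chr4:149744036-149774277, minus strand). It was at 6.82, 8.23, 5.82 and 7.96 CPM in naïve cells, 9.62, 5.46, 6.30 and 8.97 in media and 24.1, 18.6, 19.0 and 16.2 with lactate. All 4 lactate samples were above the other 8, which overlapped. Lactate raised it by 1.36 ± 0.21 (SE, adjusted p = 3.9e-04) over media, 1.60 and 0.96 within the low and high series, and media against naïve gave 0.075 ± 0.21 (SE, adjusted p = 0.77). Of its exon bases, 14.9% overlap Gm13068 on the opposite strand, and whether the counting used strand is not stated. The related carrier Slc25a36, also for pyrimidine nucleotides, was at 74.5, 75.4, 79.5 and 116 CPM in naïve cells, 121, 154, 145 and 111 in media and 80.0, 116, 80.6 and 89.1 with lactate. It rose in media by 0.62 ± 0.17 (SE, adjusted p = 0.0062) with overlapping samples. Within the high series the difference was -0.064, and the adjusted p was above 0.01 without naïve 1 (0.0238), naïve 2 (0.0411), naïve 3 (0.0368), media 2 (0.021), media 3 (0.0191), lactate 3 (0.0146) and lactate 4 (0.0169). Lactate and media samples overlapped at -0.54 ± 0.17 (SE, adjusted p = 0.024).

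Slc25a32, the carrier of folate and flavin that serves mitochondrial one-carbon metabolism (chr15:39091231-39112716, minus strand), was at 33.7, 32.3, 36.1 and 29.7 CPM in naïve cells, 22.5, 19.8, 23.2 and 18.4 in media and 45.5, 33.2, 33.2 and 31.6 with lactate. Media samples were below every naïve and every lactate sample, and naïve and lactate samples overlapped. It fell in media by 0.65 ± 0.13 (SE, adjusted p = 8.5e-04) on the log2 scale against naïve, was raised with lactate by 0.77 ± 0.13 (SE, adjusted p = 8.6e-04) against media, and lactate against naïve gave 0.12 ± 0.13 (SE, adjusted p = 0.42). Within the series the lactate differences were 0.83 and 0.81.

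None of the other cofactor carriers described here passed the test in lactate against media with all samples in the fit (by DESeq2 Slc25a16 did), and Slc25a26 and Slc25a16 passed without naïve 4, at an adjusted p of 0.0074 and 0.0067. Slc25a26, which brings in S-adenosylmethionine, ranged from 7.23 to 11.4 CPM in naïve cells, 3.49 to 4.07 in media and 5.08 to 6.07 with lactate and fell in media (-1.30 ± 0.18, adjusted p = 3.5e-05). Slc25a51, the NAD+ carrier, ranged from 90.0 to 140.2 CPM in naïve cells, 69.8 to 81.8 in media and 67.1 to 84.1 with lactate and fell in media (-0.57 ± 0.13, adjusted p = 0.0019). Slc25a17, the peroxisomal carrier of coenzyme A and related cofactors, ranged from 37.7 to 42.3 CPM in naïve cells, 60.1 to 77.9 in media and 73.7 to 94.0 with lactate and rose in media (0.77 ± 0.10, adjusted p = 2.6e-05). Slc25a16 ranged from 18.3 to 21.8 CPM in naïve cells, 15.4 to 19.5 in media and 20.8 to 25.5 with lactate, and its lactate samples were above its media samples (0.42 ± 0.12, adjusted p = 0.013). Slc25a42, for coenzyme A, ranged from 8.74 to 12.1 CPM in naïve cells, 7.52 to 15.3 in media and 10.4 to 15.3 with lactate. Neither Slc25a16 nor Slc25a42 passed in any of the 3 comparisons.

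Sequences upstream of the lactate-raised members were examined for the E-box CACGTG, a palindromic motif bound by MYC and related helix-loop-helix factors, which reads the same on both strands. The motif and the window were chosen with the values known. RefSeq windows of 250 bases before the annotated start (GRCm38.p6) were at hand for 29 of the 38 members. Of these, 6 held the motif (20.7%), beside 6.86% of all 27025 genes with a window, whether expressed here or not. The 6 were Slc25a1, Slc25a13, Slc25a14, Slc25a15, Slc25a33 and Slc25a36. Of the raised members 3 of 5 with a window held it, of the lowered members 0 of 3, and of the rest 3 of 21. The split uses the calls from these same data, and the difference between its parts was not tested. By the GENCODE coordinates, which start some genes elsewhere than RefSeq does, the motif lay inside the gene in Slc25a15 and Slc25a33. It lay before the gene in the other 4, and 1 of these, Slc25a13, was raised. Below are the windows of 2 raised members with the motif, in capitals, and of Slc25a10, which was raised as much and has no match in its window. They are given on the strand of the gene, and the motif starts 125 bases before the RefSeq start in Slc25a13 and 8 before it in Slc25a33. A match of letters says nothing of whether a factor bound there.
Slc25a13 (chr6:6217174-6217423, minus strand): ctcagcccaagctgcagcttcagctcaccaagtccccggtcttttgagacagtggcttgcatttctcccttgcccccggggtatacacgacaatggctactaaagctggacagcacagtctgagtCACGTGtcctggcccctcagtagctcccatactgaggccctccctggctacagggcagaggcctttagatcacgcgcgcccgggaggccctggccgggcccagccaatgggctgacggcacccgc
Slc25a33 (chr4:149774268-149774517, minus strand): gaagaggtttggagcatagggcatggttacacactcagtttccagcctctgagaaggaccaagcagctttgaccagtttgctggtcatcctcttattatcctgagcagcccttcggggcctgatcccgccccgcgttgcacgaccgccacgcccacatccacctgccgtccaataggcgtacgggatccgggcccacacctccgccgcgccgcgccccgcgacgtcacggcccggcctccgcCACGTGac
Slc25a10 (chr11:120491587-120491836, plus strand): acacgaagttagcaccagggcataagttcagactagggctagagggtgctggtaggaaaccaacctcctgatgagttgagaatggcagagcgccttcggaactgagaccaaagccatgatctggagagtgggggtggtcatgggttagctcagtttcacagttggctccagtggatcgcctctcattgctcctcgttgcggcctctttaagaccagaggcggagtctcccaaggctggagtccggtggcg

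Of the 4 carriers of iron and glutathione, 2 were lower with lactate by edgeR and by DESeq2 and 1 by limma voom, beside 11.1% of all genes by edgeR. None was higher by any of the 3 tools, nor at an unadjusted p under 0.05 in edgeR. Slc25a28 encodes mitoferrin 2, the iron importer of cells outside the red-cell lineage (chr19:43663801-43674881, minus strand). It was at 53.4, 55.8, 60.6 and 67.1 CPM in naïve cells, 66.7, 72.6, 72.0 and 62.0 in media and 34.4, 42.3, 31.5 and 33.5 with lactate. The 4 lactate samples were below the other 8, and naïve and media samples overlapped. Lactate against media gave -0.95 ± 0.11 (SE, adjusted p = 1.1e-04), with -0.88 and -0.93 within the series, and media against naïve gave 0.21 ± 0.11 (SE, adjusted p = 0.12). Slc25a40, one of a pair of glutathione carriers (chr5:8422850-8454797, plus strand), was at 21.5, 23.1, 25.9 and 29.7 CPM in naïve cells, 45.8, 66.4, 40.1 and 29.8 in media and 27.3, 31.9, 18.6 and 17.8 with lactate. Media samples were all above naïve ones, media 4 only just above naïve 4, and overlapped the lactate samples. It rose in media by 0.86 ± 0.24 (SE, adjusted p = 0.0072), and lactate against media gave -0.93 ± 0.24 (SE, adjusted p = 0.00962). Within the low and high series the media-naïve differences were 1.08 and 0.0073 and the lactate-media ones -0.75 and -0.71. The lactate call was lost with a term for the library series (adjusted p = 0.0114), with limma voom (0.0102) and with only the media and lactate samples fitted (0.0121). It was also lost without naïve 1 (0.0119), naïve 2 (0.0116), naïve 3 (0.0124), media 1 (0.0212), media 2 (0.0357), media 3 (0.0154), lactate 1 (0.017), lactate 3 (0.0329) and lactate 4 (0.0322), and the media call without naïve 1 (0.0247), naïve 2 (0.0316), naïve 3 (0.0237), media 1 (0.0163), media 2 (0.0269), media 3 (0.0105), lactate 3 (0.0117) and lactate 4 (0.0102).

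Slc25a37 encodes mitoferrin 1, the iron importer of developing red cells, and its naïve values followed the red-cell RNA of each sample. It was at 135, 381, 89.1 and 61.1 CPM in naïve cells, 97.7, 98.5, 100.5 and 65.9 in media and 94.3, 82.2, 63.0 and 66.6 with lactate. Naïve 2, with the most red-cell RNA, was far above the other 11, and naïve 4, with the least, was the lowest of all 12. No comparison passed the test (-0.88 ± 0.44, adjusted p = 0.0952 in media against naïve), although lactate against naïve, at -1.12 ± 0.44, adjusted p = 0.036, passed without naïve 4 (0.00512). Slc25a39, the other glutathione carrier, was at 56.4, 86.0, 43.8 and 38.0 CPM in naïve cells, 94.5, 64.6, 78.9 and 87.5 in media and 108, 99.0, 106 and 102 with lactate. It was higher with lactate than in naïve cells by 0.89 ± 0.21 (SE, adjusted p = 0.0021), a call lost without naïve 3 (0.014). Media against naïve gave 0.54 ± 0.21 (SE, adjusted p = 0.038), which passed without naïve 2 (adjusted p = 0.00111). Its naïve values and those of Slc25a38 stood in the same order as the red-cell markers, naïve 2, 1, 3 and 4. Abcb10, a mitochondrial transporter of the haem pathway that is no SLC25 member, was at 23.6, 77.1, 11.5 and 16.5 CPM in naïve samples 1 to 4. It was also highest in naïve 2 but departed from that order, with naïve 4 above naïve 3. The part of red-cell RNA in these naïve levels was not tested.

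**Figure D4:**
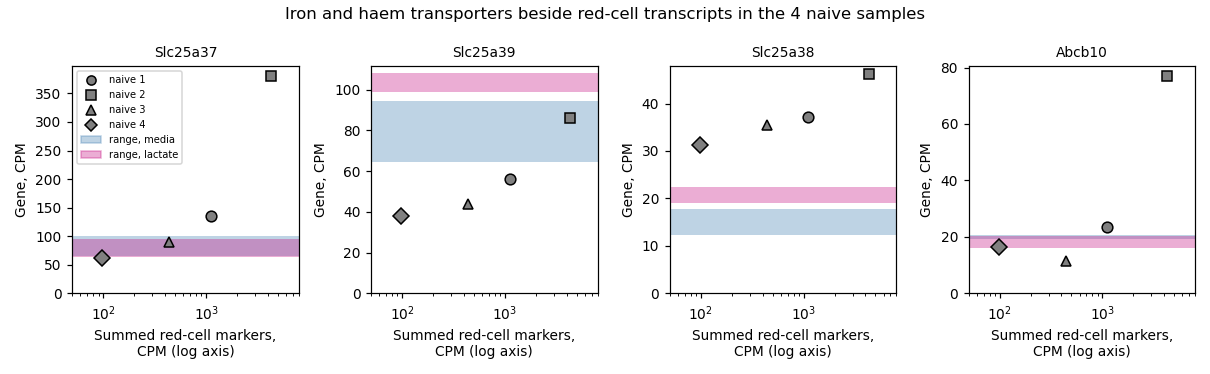
CPM of Slc25a37, Slc25a39, Slc25a38 and Abcb10 in the 4 naïve samples against the summed CPM of red-cell markers on a log axis, with shaded bands for the range of the media and lactate samples. Naïve 2, at 4300 CPM of red-cell markers, is the highest naïve point in all 4 panels, and the bands of Slc25a38 lie below every naïve point.

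None of the 3 uncoupling-like carriers and none of the 3 placed at the outer membrane or without a settled role passed in lactate against media by edgeR, DESeq2 or limma voom, and 1 of each 3 had an unadjusted p under 0.05. Slc25a27, named UCP4 for its likeness to uncoupling proteins, was at 11.9, 12.1, 13.7 and 17.1 CPM in naïve cells, 5.73, 6.60, 5.46 and 3.07 in media and 5.12, 4.87, 3.25 and 3.18 with lactate. Media samples were all below naïve ones, and it fell by 1.39 ± 0.25 (SE, adjusted p = 3.1e-04) on the log2 scale. Slc25a30 ranged from 45.4 to 67.1 CPM in naïve cells, 65.9 to 79.3 in media and 70.8 to 93.2 with lactate and passed only in lactate against naïve, among the 3 comparisons (0.49 ± 0.13, adjusted p = 0.0035, lost without naïve 2 (0.0281), media 4 (0.013), lactate 3 (0.0345) and lactate 4 (0.0119)). Slc25a14, or UCP5, ranged from 4.21 to 5.32 CPM in naïve cells, 4.18 to 5.89 in media and 5.74 to 7.23 with lactate and passed no test. Slc25a46, an outer membrane protein tied to mitochondrial shape, ranged from 52.6 to 77.3 CPM in naïve cells, 73.0 to 78.4 in media and 90.6 to 105 with lactate. It was higher with lactate than in naïve cells (0.74 ± 0.12, adjusted p = 1.1e-04), and against media it gave 0.40 ± 0.12 (SE, adjusted p = 0.019), or 0.39 with an adjusted p of 0.0085 with donor as a block. Slc25a53 ranged from 14.2 to 22.2 CPM in naïve cells, 7.40 to 13.6 in media and 8.91 to 11.8 with lactate and fell in media (-0.69 ± 0.20, adjusted p = 0.00903), a call lost without naïve 1 (0.0101), naïve 2 (0.0157), media 1 (0.0256), media 3 (0.0215), media 4 (0.0151), lactate 1 (0.0102) and lactate 2 (0.0129). Slc25a35 ranged from 3.25 to 7.33 CPM in naïve cells, 3.45 to 5.51 in media and 2.83 to 4.05 with lactate, passed no test, and shares 31.3% of its exon bases with Rangrf on the opposite strand.

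The ratio of 2 paralogues within 1 sample does not depend on library scaling, so 6 pairs were compared as log2 ratios of length-scaled counts. None of the 12 tests passed an adjusted p of 0.05 (exact permutation test, two-sided, over the 70 arrangements of 4 against 4 samples, whose smallest p is 0.0286), and 6 of the 12 reached that smallest p, with an adjusted p of 0.0571. With 6 of 12 tests at the smallest p none can pass, so the lack of a call does not show that ratios were alike. The ratio of Slc25a33 to Slc25a36 was -1.10, -0.85, -1.43 and -1.52 in naïve cells, -1.31, -2.48, -2.18 and -1.29 in media and 0.62, -0.30, 0.26 and -0.11 with lactate. Lactate samples were all above the media samples, with a difference of 1.93 (exact permutation test, p = 0.0286, adjusted p = 0.0571). The ratio of citrin to aralar, Slc25a13 to Slc25a12, was -3.17, -2.53, -2.64 and -2.65 in naïve cells, -1.04, -1.84, -1.15 and -1.55 in media and -0.24, -0.37, -0.58 and -0.62 with lactate. The 3 groups were apart, and the difference was 1.35 (exact permutation test, p = 0.0286, adjusted p = 0.0571) for media against naïve and 0.94 (exact permutation test, p = 0.0286, adjusted p = 0.0571) for lactate against media. Aralar stayed the more abundant transcript per length in all 12 samples.

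For Slc25a37 to Slc25a28 the ratio was 0.66, 2.09, -0.13 and -0.82 in naïve cells, -0.13, -0.24, -0.20 and -0.60 in media and 0.77, 0.28, 0.32 and 0.31 with lactate. All media samples had less mitoferrin 1 than mitoferrin 2 and all lactate samples more, a difference of 0.71 (exact permutation test, p = 0.0286, adjusted p = 0.0571). The glutathione carriers Slc25a39 and Slc25a40 had a ratio of 2.99, 3.50, 2.36 and 1.96 in naïve cells, 2.65, 1.57, 2.58 and 3.16 in media and 3.59, 3.24, 4.11 and 4.13 with lactate. Lactate samples were all above media samples, with 1.28 (exact permutation test, p = 0.0286, adjusted p = 0.0571). The ratio of Slc25a24 to Slc25a25 was -0.30, 0.078, -0.44 and -0.42 in naïve cells, 2.57, 2.80, 2.49 and 1.96 in media and 2.01, 2.09, 1.52 and 1.70 with lactate. Media samples were far above naïve ones, with 2.73 (exact permutation test, p = 0.0286, adjusted p = 0.0571). For the ADP/ATP exchangers Slc25a5 and Slc25a4 the groups overlapped, at 1.51, 1.58, 1.41 and 1.53 in naïve cells, 1.30, 1.23, 1.26 and 1.48 in media and 1.90, 1.47, 1.86 and 1.83 with lactate, with 0.45 (exact permutation test, p = 0.0571, adjusted p = 0.0857) for lactate against media.

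**Figure D5:**
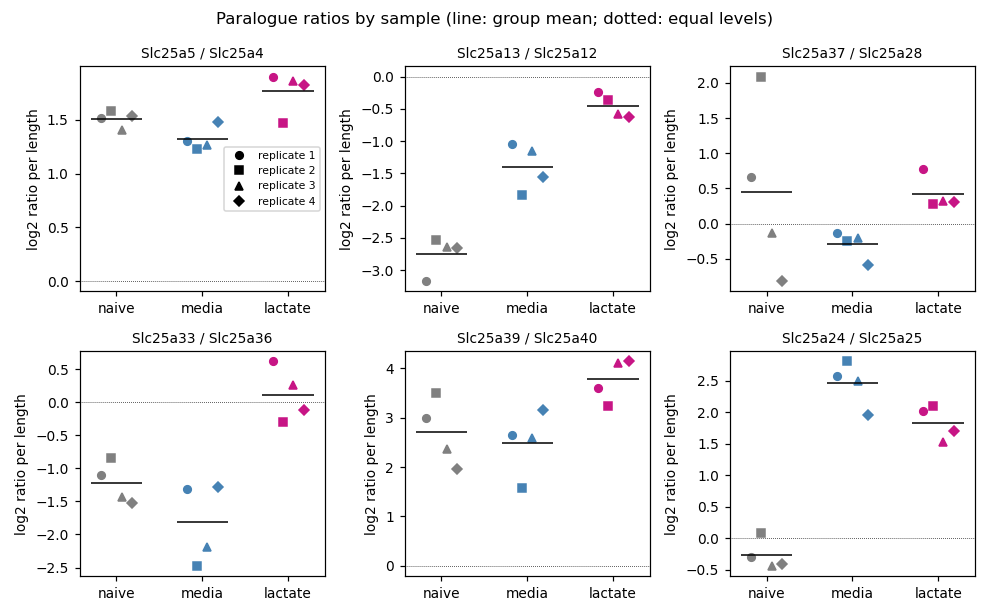
Log2 ratio of length-scaled counts of 6 paralogue pairs in each of the 12 samples, with marker shape for the replicate, a line at the group mean and a dotted line at equal levels. The lactate points lie above the media points without overlap for Slc25a13 to Slc25a12, Slc25a37 to Slc25a28, Slc25a33 to Slc25a36 and Slc25a39 to Slc25a40.

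Of 24 other mitochondrial transporters in the table, 5 were called in lactate against media, 4 higher and 1 lower, beside 25.1% of all genes. Letm1, a cation exchanger of the inner membrane, was at 89.2, 76.7, 85.4 and 117 CPM in naïve cells, 56.5, 43.8, 60.4 and 47.6 in media and 106, 89.5, 103 and 103 with lactate, and its media samples were the lowest (0.94 ± 0.14, adjusted p = 3.1e-04). Sfxn1, a serine transporter of one-carbon metabolism, was at 57.9, 63.0, 64.4 and 36.8 CPM in naïve cells, 154, 112, 144 and 145 in media and 243, 195, 226 and 225 with lactate and its groups were apart (0.68 ± 0.16, adjusted p = 0.0057). Mpc2, a subunit of the pyruvate carrier, gave 0.47 ± 0.099 (SE, adjusted p = 0.0026), and Vdac2, a channel of the outer membrane, gave 0.41 ± 0.072 (SE, adjusted p = 9.5e-04). Sfxn4 was lower with lactate, 2.20, 2.57, 2.19 and 1.64 CPM against 4.39, 6.98, 5.85 and 4.14 in media (-1.31 ± 0.27, adjusted p = 0.0025). None of Ucp2, Mtch1 and Mtch2, the SLC25 relatives under other symbols, passed in this comparison by edgeR, and 2 had an unadjusted p under 0.05.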

How the data were processed

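RNA was measured in naïve, media and lactate samples of mouse CD8+ T cells, 4 each. Per the labels and the study's methods, the authors demultiplexed reads with bcl2fastq 2.20.0.422, aligned them to GRCm38 with STAR 2.7.5b, took out PCR duplicates and counted reads with a unique position over Ensembl exons with featureCounts. The kit keeps strand, but the setting for strand in featureCounts is not given in the sources used here. The authors deposited raw counts per gene with the gene length, for 13780 genes that were already limited to expressed ones. The counts were not normalised.

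The 13767 genes that reached 1 CPM in 3 samples were fitted in edgeR 4.0.16 (R 4.3.3) as 1 quasi-likelihood model of 3 groups over all 12 samples with TMM scaling and no block. Tests were two-sided, and p-values were adjusted by Benjamini-Hochberg across the whole table and called at 0.01. CPM are scaled by TMM, and TPM use the deposited lengths. Standard errors are log2 fold changes over the root of the F statistic. All 38 members were found in GENCODE M21 with a length equal to that of the table. Paralogue ratios were tested by exact permutation. limma 3.58.1 (voom) and DESeq2 1.42.0 served as alternatives. The fit was also run on simulated counts. These were less dispersed than the real counts and held no donor or library series effect, so they do not test the fit at its real spread.

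Counts and medians are over all 38 members, and 1 member is not reported here by name. Values by sample are given for members called in lactate against media, the 5 largest called rises and falls in media against naïve, the 3 members of highest mean TPM and the paralogues. Slc25a22 has no partner in the table and formed no pair. Members and lists were chosen with earlier results of these data known. Groups, replicates and donor tags came from the labels. Donor tags restart between the library series and were read within each, which gives 5 donors of activated cells, 3 with both a media and a lactate sample. Across genes, the deviations of these 3 pairs from their group means correlated at 0.374, 0.211 and 0.553. Pairs of different donors ran from -0.4406 to 0.3715. The highest of them was media 4 with lactate 3, both of the high series, so these values do not separate donor from library series. Naïve samples carry no donor tag, so p-values measure the spread between samples.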

Additional observations from a re-analysis of the deposited data

Results flagged for a closer look

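In 8 of 114 groups of 4 samples (38 members in 3 groups), 1 sample lay farther from its nearest neighbour than Dixon's critical value allows for the group's range, where chance gives about 5% of groups. Naïve 4 was that sample in 5 of the 8. It was high for Slc25a3 (748.9 CPM, the next sample 496), Slc25a36 (116.3, next 79.5) and Slc25a46 (77.31, next 54.2), and low for Slc25a17 (37.7, next 42.0) and Slc25a42 (8.739, next 11.7). Media 4 was low for Slc25a22 (31.85, next 35.4) and Slc25a37 (65.89, next 97.7). Lactate 1 was high for Slc25a32 (45.5, next 33.2), and without it Slc25a32 still passed the test in lactate against media.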

How the results depend on the processing

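Slc25a33, Slc25a10, Slc25a15, Slc25a32 and Slc25a28 passed in lactate against media in all 22 alternative analyses of each gene. Slc25a5 was lost in 14, Slc25a40 in 12, Slc25a45 in 4 and Slc25a13 in 3, all in the same direction. The count of members in lactate against media was 9, with 17 (13 higher, 4 lower) at an adjusted p of at most 0.05 and 5 to 16 with single samples left out, and it was within 1.5 times 9 in 19 of 23 alternatives. In media against naïve it was 20, with 17 to 23 when single samples were left out, and in lactate against naïve 23, with 19 to 28. The other mitochondrial transporters called in lactate against media numbered 5, and 11 either at an adjusted p of at most 0.05 or when only the 2 groups compared were fitted. The cause of these moves was not tested, apart from the looser threshold. For the alternatives here and below, the share of all genes called is not given. These counts therefore do not set the family apart from the transcriptome.

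With the donor as a replicate block, 10 members were called in lactate against media, 8 of them shared with the 9. Slc25a5 was lost and Slc25a23 and Slc25a46 were gained, and no other call changed. Of the 4 media and lactate pairs that share a title number, the 2 that are also donor pairs correlated at 0.374 and 0.553 and the other 2 at 0.297 and 0.0038, so the numbers do not pair all samples. With the title number as a block the counts were 9 (8 shared), 19 and 23 in the 3 comparisons. No donor block could be used against naïve samples, which carry no donor tag.

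No value that changed sign had been called in the comparison in which it did, although some of these members were called in another. In lactate against media, Slc25a4 became -0.025 with DESeq2 size factors, -0.014 with upper quartile scaling, -0.025 with the DESeq2 Wald test and -0.043 with the donor block. The donor block also turned Slc25a53 (0.17), Slc25a51 (0.0084), Slc25a30 (-0.031) and Slc25a1 (-0.0040), and a term for the library series turned Slc25a53 (0.050). In lactate against naïve, DESeq2 size factors gave Slc25a36 -0.016, Slc25a20 -0.0041 and Slc25a47 -0.0011, and the DESeq2 Wald test gave -0.016, -0.0041 and -0.0023. With naïve 1 and 3 alone, an alternative chosen after seeing the data, media against naïve gave Slc25a14 -0.048, Slc25a15 -0.048 and Slc25a42 -0.13, and lactate against naïve gave Slc25a20 -0.023 and Slc25a32 -0.099. In the high library series alone, the media against naïve log2 ratio differences became 0.22 for Slc25a37 to Slc25a28, 0.24 for Slc25a33 to Slc25a36 and 1.20 for Slc25a39 to Slc25a40.

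Leaving out single samples also changed signs, over these ranges. In lactate against media they were -0.19 to 0.10 for Slc25a53, -0.041 to 0.066 for Slc25a4, -0.033 to 0.12 for Slc25a1 and -0.011 to 0.30 for Slc25a42. In media against naïve they were -0.073 to 0.16 for Slc25a14, -0.035 to 0.16 for Slc25a15, -0.090 to 0.21 for Slc25a33, -0.029 to 0.26 for Slc25a10, -0.053 to 0.19 for Slc25a42 and -0.46 to 0.091 for the ratio of Slc25a39 to Slc25a40. In lactate against naïve they were -0.069 to 0.25 for Slc25a36, -0.050 to 0.17 for Slc25a47, -0.24 to 0.017 for Slc25a40 and -0.010 to 0.16 for Slc25a32. Depth was alike across samples, and Slc25a47, near 1 CPM, is the member it limits most. With 4 samples a group, a paralogue ratio could not pass among 12 tests alone, nor together with the others that reached the smallest p.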
